A study of Mus musculus with 8 samples.

Results

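The 5 control libraries of a mouse lung epithelium experiment are described here on their own, as the baseline transcriptome of epithelial cells from mice that inhaled only phosphate-buffered saline (PBS). They were the 5 raw-count columns whose names carry wt and PBS, out of 8 columns in the table. The other 3 belonged to mice given lipopolysaccharide (LPS, a bacterial cell wall component that provokes inflammation) and were set aside, so no difference between the treatments is reported. The columns are numbered s1, s2, s6, s11 and s16. These numbers could not be tied to the replicate numbers 1 to 5 of the sample labels, which call the samples biological replicates, and a number carries no order.

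All mice were C57BL6, and the columns name them wt. By the study's methods, females were used, young or old, and the labels do not give the age in this experiment. Control mice breathed nebulized PBS for 30 min, 3 times a week, over 10 weeks, and the methods place lung collection 48 h after the final exposure. The counterpart group breathed LPS at 0.5 mg/ml on the same schedule. From each sample 10000 cells positive for EpCam, an adhesion protein of epithelial surfaces, and negative for CD31 (endothelium) and CD45 (leukocytes) were sorted, and bulk MARS-seq libraries were made from their poly(A) RNA. The labels speak of pooled samples in library preparation, and whether a library holds cells of 1 mouse or of several is not stated there. MARS-seq reads the 3′ end of each transcript and counts unique molecular identifiers (UMIs), so that counts were not divided by transcript length when genes were compared.

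The lung surface is lined by a handful of epithelial cell types. In the alveoli, cuboidal type II cells make surfactant, the lipid and protein film that keeps air spaces from collapsing, and flat type I cells form the gas exchange surface. In the conducting airways, club cells secrete protective proteins and metabolize inhaled compounds, ciliated cells move mucus, and rarer goblet, basal, neuroendocrine and tuft cells accompany them. In a bulk library of such a mixture, fewer cells of a type and less RNA per cell of that type cannot be told apart.

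The 5 libraries held 2232727 to 2890560 UMIs over 13265 genes, of which 12659 had a UMI in every library and 5 had none in any. By the study's methods, genes with fewer than 30 UMIs across samples were left out before its own analysis. A gene missing from the table may thus still have had UMIs in these libraries. Levels are given as CPM, counts scaled to a common library size of 1000000 UMIs after TMM adjustment, and 3 UMIs corresponded to 0.929 to 1.42 CPM. TMM moved the levels relative to the library total by -0.16 on the log2 scale in s1 and s2, 0.09 in s6, 0.08 in s11 and 0.16 in s16. The libraries did not scatter evenly. Libraries s1 and s2 were the closest pair, with 11 of 4190 well-counted genes over 2-fold apart, whereas the other 9 pairs had 75 to 328 such genes. Library s16 stood apart in airway secretory products and s6 in ciliated cell products, and the list shares and CVs that rest most on either are also given without it. The club and goblet shares were also lowest in s6, at 2.49% and 0.0255% of UMIs.

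Surfactant and secretory transcripts dominated the resting epithelium. The 10 most abundant genes held 18.5% of UMIs in s1, 18.5% in s2, 23.4% in s6, 23.2% in s11 and 25.1% in s16, and the 100 most abundant held 33.6% to 42.0%. By mean level, 103 genes reached 1000 CPM, 1611 reached 100 CPM and 8339 reached 10 CPM. Of the 10 leading genes 7 were on the alveolar type II list, of the 20 leading genes 8, and a further 2 were on the club list. Ribosomal protein genes and Rack1 made up 30 of the 100 most abundant genes, and ribosomal protein transcripts took 5.69% to 7.22% of UMIs.

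**Figure D1:**
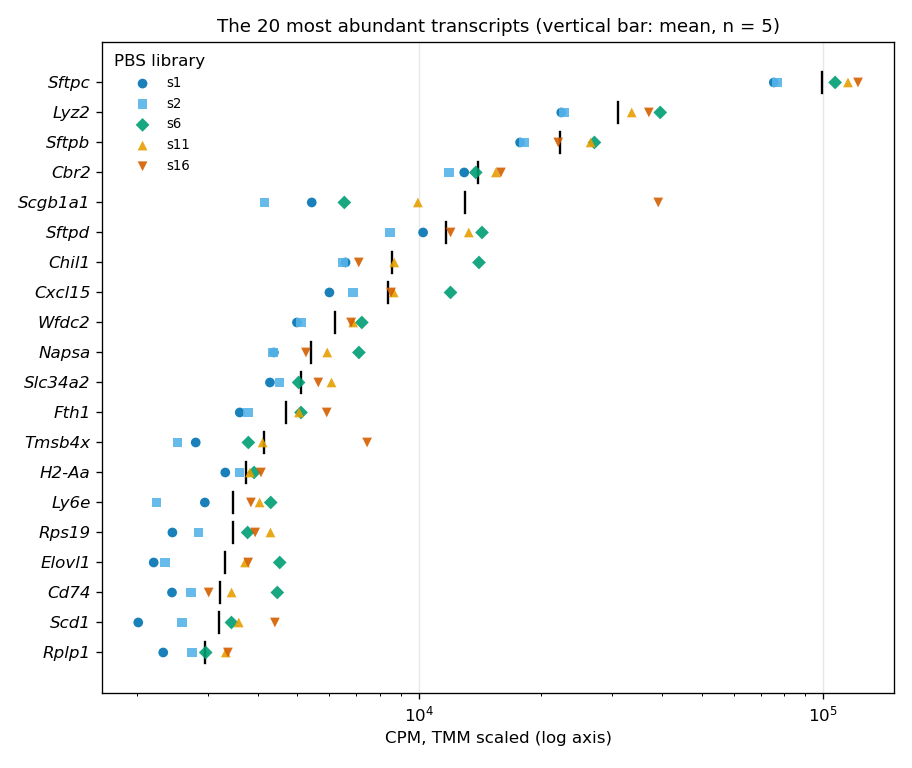
The 20 genes with the highest mean level are shown from top to bottom, with CPM after TMM scaling on a log axis, 1 symbol per PBS library and a vertical bar at the mean of 5. Sftpc lay to the right of every other gene in each library, between 75476 and 121950 CPM, and Scgb1a1 had the widest spread, with s16 at 39070 CPM and the other libraries at 4146 to 9933 CPM.

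Sftpc, which encodes surfactant protein C (GRCm38 chromosome 14, 70520941 to 70524081), ranked above every other gene in each library. It measured 75476 CPM in s1, 76940 CPM in s2, 107040 CPM in s6, 115180 CPM in s11 and 121950 CPM in s16, a mean of 99317 ± 21753 CPM (SD, n = 5). It alone held 8.42% to 10.9% of UMIs. Libraries s1 and s2 were the low pair and the other 3 lay close together above them. Lyz2, lysozyme, averaged 31096 ± 7975 CPM and Sftpb, surfactant protein B, 22365 ± 4446 CPM (SD, n = 5), and Lyz2 was above Sftpb in every library. For Lyz2 and Lyz1, which are near-identical copies, the division of reads between the genes is uncertain, since only uniquely mapping reads were counted.

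Among the other leading genes, Cbr2, a carbonyl reductase, averaged 14010 ± 1707 CPM, and Sftpd, the collectin surfactant protein D, 11654 ± 2336 CPM (SD, n = 5). The chitinase-like Chil1 averaged 8582 ± 3190 CPM, and Cxcl15, a lung-restricted chemokine of mice, 8399 ± 2286 CPM (SD, n = 5). Both were highest in s6, at 14068 CPM and 11961 CPM. Napsa, the aspartic protease that trims surfactant precursors, averaged 5398 ± 1156 CPM, and Slc34a2, the phosphate transporter of the type II cell surface, 5105 ± 751 CPM (SD, n = 5). The genes of general cell function among the 20 were Fth1 (ferritin heavy chain, 4685 ± 978 CPM), Tmsb4x (thymosin that binds actin monomers, 4129 ± 1962 CPM), Rps19 and Rplp1 of the ribosome (3456 ± 773 and 2945 ± 431 CPM, SD, n = 5). Tmsb4x reached 7437 CPM in s16 against 2527 to 4101 CPM in the other 4.

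The labelled cell type was checked with marker genes of 5 compartments. Epcam, the gene of the sorting antigen (chromosome 17, 87635979 to 87651127), measured 142 CPM in s1, 129 CPM in s2, 109 CPM in s6, 105 CPM in s11 and 110 CPM in s16, and ranked 1031st to 1552nd in the libraries. Of the other 13 genes on the epithelial adhesion list 5 had a higher mean and 8 a lower one. Cldn3 and Cldn18, claudins of tight junctions, averaged 1020 ± 69.6 CPM and 756 ± 54.6 CPM, and Cdh1, E-cadherin, 385 ± 30.2 CPM (SD, n = 5). The 14 listed adhesion genes were all measured and held 0.287% to 0.342% of UMIs, among the most even shares of the 28 lists. Among markers of the main epithelial classes, Sftpc (type II cells) ranked above all other genes, Scgb1a1 (club cells) 2nd to 11th, Ager (type I cells) 22nd to 51st and Foxj1 (ciliated cells) 117th to 821st in the libraries.

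Markers of the cells that the gate should remove were low relative to the epithelial products but not at 0. Pecam1, which encodes CD31, measured 136 CPM in s1, 165 CPM in s2, 90.8 CPM in s6, 114 CPM in s11 and 70.8 CPM in s16, and so lay in the same range as Epcam. Ptprc, which encodes CD45, was lowest in s16 at 7.47 CPM and highest in s2 at 34.1 CPM, with 11.3 CPM in s11 and 14.6 CPM in s6. All 14 endothelial genes had UMIs, and the list held 0.136% ± 0.037% of UMIs (SD, n = 5), with a range of 0.0830% in s16 to 0.173%. The fibroblast and mural list held 0.121% to 0.298% with 16 of 17 genes in the table, of which gelsolin (Gsn) alone, a gene active in many cell types, made up 45.3%. The next members by level were matrix Gla protein (Mgp) at 451 ± 149 CPM, the methyltransferase Inmt at 245 ± 99.0 CPM and nephronectin (Npnt) at 134 ± 14.3 CPM (SD, n = 5), each with a mean above that of Epcam. The collagen transcripts Col1a1 and Col1a2 stood at 1.37 ± 0.72 and 29.0 ± 15.6 CPM (SD, n = 5). The macrophage list (21 of 22 genes) held 0.0513% to 0.0898%. It was led by Cd14 at 144 ± 56.3 CPM and Chil3 at 122 ± 44.2 CPM (SD, n = 5), each with a mean above that of Epcam. Laptm5, Ctss and Tyrobp averaged 93.9, 79.9 and 76.9 CPM and Fcer1g 34.5 CPM, while Adgre1, Mrc1 and Marco averaged under 10 CPM each. The T and NK, B and plasma, neutrophil, mesothelial, and erythroid and platelet lists each held at most 0.0125% in every library.

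**Figure D2:**
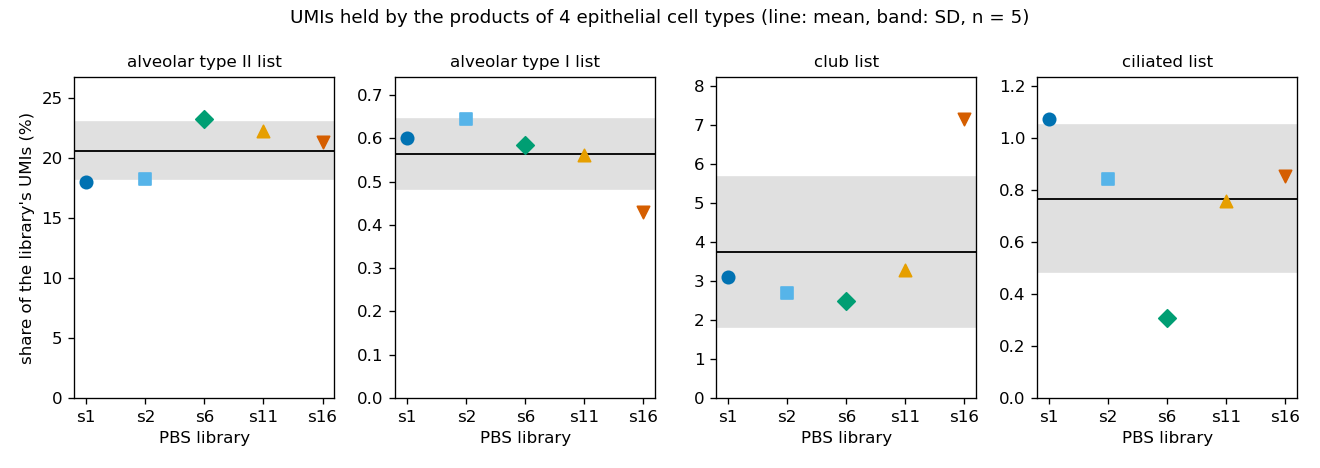
Each panel gives the share of a library's UMIs (percent, axis from 0) held by the listed products of an epithelial cell type in the 5 PBS libraries, with the mean as a line and 1 SD as a band. The type II share was 17.99% to 23.2%, the club share was 7.16% in s16 and at most 3.28% elsewhere, and the ciliated share was 0.309% in s6 and at least 0.760% elsewhere.

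Type II products were the largest class by far. The 22 listed genes, all measured, held 17.99% of UMIs in s1, 18.2% in s2, 23.2% in s6, 22.3% in s11 and 21.3% in s16, a mean of 20.6% ± 2.4% (SD, n = 5). At these depths the counting error was small, and the Wilson 95% interval of the s1 share ran from 17.95% to 18.04%. Intervals of this kind cover counting error only. Sftpc contributed 47.6% of the list. Members of the surfactant pathway were strong throughout: Abca3, the lipid pump of lamellar bodies, averaged 1614 ± 192 CPM, and Lamp3, a lamellar body membrane protein, 1855 ± 354 CPM (SD, n = 5). Sftpa1, surfactant protein A, averaged 1691 ± 264 CPM, and Lpcat1, which makes dipalmitoyl phosphatidylcholine, 1211 ± 177 CPM (SD, n = 5). Ctsh, a cathepsin that processes surfactant proteins, was the steadiest of them, with 1367 to 1716 CPM.

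A few type II genes departed from this evenness. S100g, a calcium-binding protein, measured 477 CPM in s1, 445 CPM in s2, 738 CPM in s6, 936 CPM in s11 and 1784 CPM in s16. It was the single member of the list with a coefficient of variation (CV, SD over mean) above 0.5, at 0.62. Il33, an alarmin cytokine, ran the other way, with 304, 358, 494, 230 and 196 CPM in the same order, and Egfl6, a secreted matrix protein, split 198, 229 and 214 CPM in s1, s2 and s6 from 108 and 107 CPM in s11 and s16.

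Type I products were scarce next to those of type II cells. Of 24 listed genes 23 were in the table, and they held 0.602% of UMIs in s1, 0.645% in s2, 0.584% in s6, 0.562% in s11 and 0.431% in s16, a mean of 0.565% ± 0.081% (SD, n = 5). Without s16 the mean was 0.598% ± 0.035% (SD, n = 4). Ager, the receptor for advanced glycation end products that is concentrated on type I cells (chromosome 17, 34597460 to 34600937), measured 1855, 2061, 2590, 2318 and 1772 CPM in the same order and made up 37.6% of the list. The ratio of Sftpc to Ager UMIs was 37.3 to 49.7 in s1, s2, s6 and s11 and 68.8 in s16. The homeodomain-only protein Hopx averaged 403 ± 79.4 CPM, the membrane protein Emp2 421 ± 56.2 CPM (SD, n = 5), and the water channel Aqp5 ranged from 367 to 416 CPM. Pdpn, podoplanin, a classical surface marker of type I cells, had 3.24 to 6.66 CPM, or 8 to 20 UMIs per library. In s16, 10 of the 20 type I genes with a mean of at least 30 UMIs were the lowest of the 5 libraries, where 23.0% of all 8033 such genes were.

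Club cell products set s16 apart from the other 4 libraries. All 24 listed genes were measured, and they held 3.12% of UMIs in s1, 2.71% in s2, 2.49% in s6, 3.28% in s11 and 7.16% in s16. The mean was 3.75% ± 1.93% (SD, n = 5), and 2.90% ± 0.36% (SD, n = 4) without s16. The CV of the share was 0.515 with s16 and 0.125 without it. Cbr2, with a CV of 0.12, made up 42.5% of the list on average, so the share without s16 rests in large part on Cbr2. The ratio of Scgb1a1 to Cbr2 UMIs was 0.349 to 0.641 in the other 4 libraries and 2.45 in s16. Which cells the Cbr2 RNA came from cannot be told from a bulk library. Some other members of the list were less even without s16, with CVs of 0.38 for Scgb1a1 and 0.52 for Scgb3a1. Scgb1a1, secretoglobin 1A1 or club cell secretory protein (chromosome 19, 9083642 to 9087956), measured 5425, 4146, 6532, 9933 and 39070 CPM in s1, s2, s6, s11 and s16. It ranked second in s16 and 6th to 11th in the others. Its mean was 13021 ± 14719 CPM (SD, n = 5), and 6687 CPM over the 4 libraries without s16. The ratio of Sftpc to Scgb1a1 UMIs was 11.6 to 18.6 in 4 libraries and 3.12 in s16.

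The other secretoglobins on the list and Bpifa1 shared this pattern, and several further members did not to that extent. Scgb3a1, another secretoglobin, measured 1891 CPM in s1, 1267 CPM in s2, 651 CPM in s6, 2541 CPM in s11 and 8020 CPM in s16. Scgb3a2 measured 734, 361, 363, 771 and 3217 CPM, and Bpifa1, an antimicrobial surface protein of the upper airways, 794, 1547, 291, 538 and 5645 CPM in the same order. Each was highest in s16 by more than 3-fold over the next library. By contrast Cbr2 measured 12933, 11879, 13810, 15490 and 15939 CPM, a CV of 0.12. The cytochrome P450 gene Cyp2f2, which activates inhaled aromatic compounds in mouse club cells, measured 2328, 1712, 1039, 1325 and 2783 CPM. The retinal dehydrogenase Aldh1a1 measured 434, 451, 168, 203 and 373 CPM, and was thus highest in s1 and s2. Haptoglobin (Hp), Selenbp1 and the aldehyde oxidase Aox3 had CVs of 0.20, 0.20 and 0.09. In s16, 16 of the 23 club genes with a mean of at least 30 UMIs were the highest of the 5 libraries, where 24.9% of all such genes were.

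**Figure D3:**
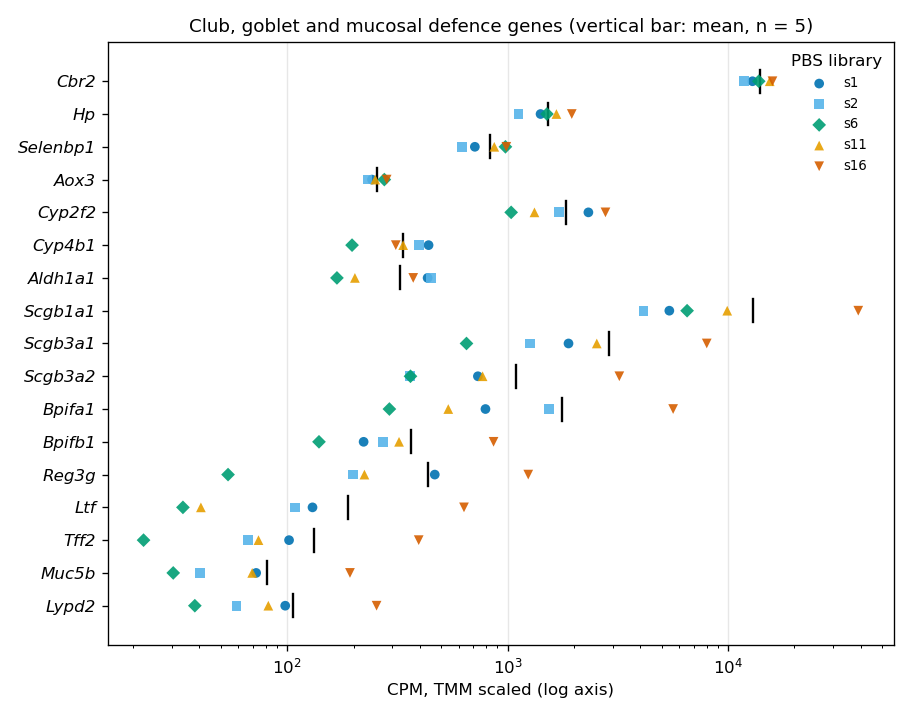
CPM after TMM scaling is drawn on a log axis for 17 genes of the club, goblet and mucosal defence lists, with 1 symbol per PBS library and a vertical bar at the mean of 5. Cbr2, Hp and Aox3 cluster tightly, whereas Cyp2f2 (1039 to 2783 CPM) and Aldh1a1 (168 to 451 CPM) spread more widely. For the secretoglobins, Bpifa1, Bpifb1, Reg3g, Ltf, Tff2, Muc5b and Lypd2, s16 lies to the right of the other 4 libraries.

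The promoters of the 4 most abundant club genes with a single entry in the RefSeq table (GRCm38.p6) are shown. The club list was taken because its share varied most among the type II, type I, club and ciliated lists. Each runs from 250 bases before to 50 bases after the annotated start, 5′ to 3′ on the strand of the gene, with matches in capitals. The motifs searched on both strands, which did not overlap in these promoters, were TGTTTAC (a FOXA site), CTCAAG (a site of NKX2-1, the lung lineage homeodomain factor), TTGCNNAA (C/EBP) and GTTGCC (an arm of the X box of RFX factors).
Cbr2, chr11:120731972-120732271, minus strand: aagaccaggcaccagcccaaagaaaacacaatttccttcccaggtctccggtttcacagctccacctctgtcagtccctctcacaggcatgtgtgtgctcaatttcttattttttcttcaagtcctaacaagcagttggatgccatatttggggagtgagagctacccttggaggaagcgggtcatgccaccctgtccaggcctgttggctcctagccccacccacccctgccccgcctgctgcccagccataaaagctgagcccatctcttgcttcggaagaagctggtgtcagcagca
Scgb3a1, chr11:49663345-49663644, plus strand: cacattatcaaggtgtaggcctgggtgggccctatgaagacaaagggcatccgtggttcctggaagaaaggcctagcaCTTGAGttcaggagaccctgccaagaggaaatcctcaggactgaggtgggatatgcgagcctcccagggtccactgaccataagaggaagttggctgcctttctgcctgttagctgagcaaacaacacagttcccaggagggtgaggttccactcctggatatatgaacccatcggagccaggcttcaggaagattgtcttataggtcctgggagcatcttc
Cyp2f2, chr7:27119705-27120004, plus strand: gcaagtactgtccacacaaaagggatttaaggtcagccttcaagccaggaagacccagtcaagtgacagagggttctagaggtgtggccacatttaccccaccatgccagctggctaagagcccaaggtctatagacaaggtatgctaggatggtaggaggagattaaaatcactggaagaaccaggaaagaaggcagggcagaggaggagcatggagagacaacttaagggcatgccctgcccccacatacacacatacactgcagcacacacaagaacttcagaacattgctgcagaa
Bpifa1, chr2:154142630-154142929, plus strand: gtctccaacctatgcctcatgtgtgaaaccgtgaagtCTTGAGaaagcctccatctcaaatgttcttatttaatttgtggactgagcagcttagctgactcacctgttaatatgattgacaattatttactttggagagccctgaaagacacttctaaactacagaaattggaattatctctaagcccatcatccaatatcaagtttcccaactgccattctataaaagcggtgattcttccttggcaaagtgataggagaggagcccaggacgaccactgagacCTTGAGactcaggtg
The capitals in Scgb3a1 and Bpifa1 mark CTCAAG read from the opposite strand, which lay at -172 in Scgb3a1 and at -213 and 35 in Bpifa1 from the start. The windows of Cbr2 and Cyp2f2 held none of the 4 motifs. Among the 22862 genes with a single promoter in the table CTCAAG was found in 16.4%, TGTTTAC in 3.56% and TTGCNNAA in 10.8%, and among the 15 club genes with a single listed promoter in 5, 0 and 5. A match is a run of letters and not a measured binding site.

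Ciliated cell products moved together, and s6 was low in nearly all of them. Of 40 listed genes 39 were in the table, and they held 1.07% of UMIs in s1, 0.843% in s2, 0.309% in s6, 0.760% in s11 and 0.853% in s16. The mean was 0.768% ± 0.282% (SD, n = 5), and 0.882% ± 0.134% (SD, n = 4) without s6. Foxj1, the master transcription factor of motile cilia (chromosome 11, 116330704 to 116335499), measured 768 CPM in s1, 569 CPM in s2, 186 CPM in s6, 329 CPM in s11 and 362 CPM in s16. Its rank ranged from 117th in s1 to 821st in s6. The most abundant members were Sec14l3, a lipid transfer protein, with 1708, 1461, 636, 1571 and 1727 CPM, and Tppp3, which bundles tubulin, with 1542, 1312, 659, 1384 and 1529 CPM in the same order.

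All 34 members with a mean of at least 100 UMIs were over 2-fold lower in s6 than the median of the other 4 libraries, where 4.61% of all 4190 such genes were. The difference was 2.01-fold to 4.34-fold, with a median of 2.69-fold, and it covered the radial spoke genes Rsph1 and Rsph9, the tektin Tekt1, the dynein light chain Dynlrb2 and the assembly factor Zmynd10. Of the 37 members with a mean of at least 30 UMIs, 35 were lowest in s6, where 20.8% of all such genes were, and 23 were highest in s1, where 17.7% were. On other lists, 11 of 23 club, 4 of 6 goblet and 7 of 12 fibroblast and mural genes with that mean were also lowest in s6. For type II and type I genes it was 1 of 22 and 5 of 20. The ciliated members were not in fixed proportion in the other libraries. Foxj1 was far higher in s1 (768 CPM) than in s16 (362 CPM), whereas Dynlrb2 measured 247 CPM in s1 and 507 CPM in s16 and Fam183b 151 CPM and 282 CPM.

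**Figure D4:**
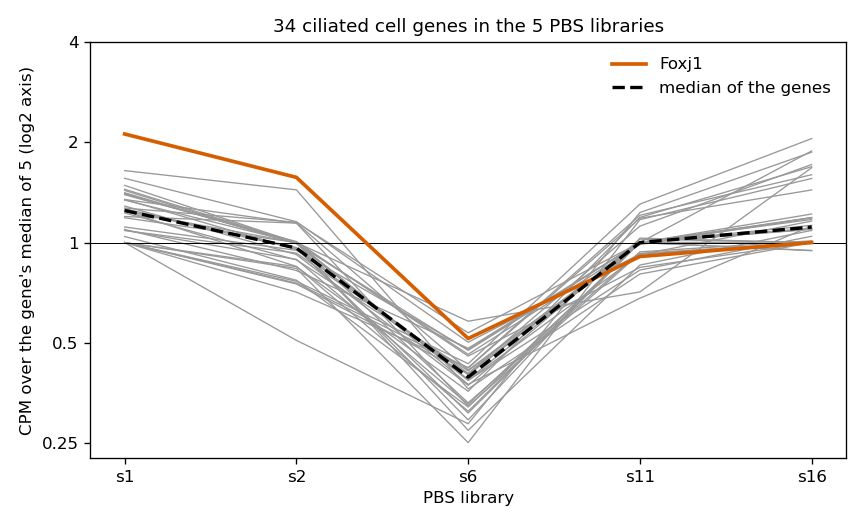
Each grey line is 1 of the 34 ciliated list members with a mean of at least 100 UMIs, drawn as its CPM over its own median of the 5 PBS libraries on a log2 axis, and the libraries on the x axis have no order. All 34 lines and their dashed median have the low point at s6, and Foxj1 (orange) is highest in s1. In s6 the genes were 2.01-fold to 4.34-fold below the median of the other libraries.

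Many of these genes also shared a promoter feature that was not used to list them. RFX factors, which act with FOXJ1 in ciliated cells, bind the X box, an inverted repeat whose arms read GTTGCC. The arm was found on either strand in 16 of the 27 ciliated genes with a single listed promoter (59.3%), against 12.7% of all 22862 genes with a single promoter, 3 of 16 type II genes, 0 of 16 type I genes and 1 of 15 club genes. Windows of 24 bases around the site are shown for the 8 most abundant ciliated genes that hold it, so that the bases after the arm can be compared. They run along the strand of the motif, with GTTGCC in capitals, on GRCm38.p6, and for a gene with several sites the first in the table is given. Dnaic2, a dynein intermediate chain gene, was added after its letters were seen.
Ccdc153, chr9:44240521-44240544, plus strand: tccaGTTGCCtggacaacgtgcag
Dynlrb2, chr8:116504960-116504983, plus strand: cctgGTTGCCtagcaacgggggaa
AU040972, chr11:79484223-79484246, minus strand: tctgGTTGCCaagaggcttctttt
Fam183b, chr11:58802008-58802031, minus strand: cgctGTTGCCtagagacagaaagg
Cdhr3, chr12:33092872-33092895, plus strand: ctttGTTGCCaggcaggaaaccaa
BC051019, chr7:109723897-109723920, plus strand: gcaaGTTGCCaagcaggtagctat
Zmynd10, chr9:107547329-107547352, minus strand: ggcaGTTGCCaagccgttgaagcg
Mlf1, chr3:67373988-67374011, plus strand: agagGTTGCCatagcagccgagcg
Dnaic2, chr11:114727379-114727402, minus strand: accaGTTGCCtagcaaccctggcc
Windows of this length could be taken for 15 of the 16 genes, since the site of Spag6l lay too near the end of its promoter. The inverted arm GCAAC followed within 14 bases in 3 of the 18 windows of 15 genes, namely those of Dynlrb2, Dnaic2 and Hydin. Binding at these windows was not measured.

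The lists of the rarer airway lineages held at most 0.147% of UMIs each. The 11 goblet genes held 0.0531% of UMIs in s1, 0.0471% in s2, 0.0255% in s6, 0.0494% in s11 and 0.147% in s16, and all 6 with a mean of at least 30 UMIs were highest in s16, where 24.9% of all such genes were. Without s16 the goblet share averaged 0.0438% ± 0.0125% (SD, n = 4). Bpifb1, a secreted relative of Bpifa1, measured 222, 272, 139, 322 and 864 CPM, the gel-forming mucin Muc5b 72.3, 40.3, 30.4, 69.4 and 193 CPM, and the trefoil factor Tff2 102, 66.3, 22.3, 74.1 and 395 CPM. Muc5ac, the mucin of goblet cell metaplasia, stayed at 0.472 to 2.00 CPM. The basal list held 0.00882% to 0.0225%, of which Sfn, at 93.9 ± 14.2 CPM (SD, n = 5), made up 62.1%. The basal keratins were lower, with Krt5 at 2.36 to 23.7 CPM and Krt15 at 8.02 to 55.1 CPM. The neuroendocrine list held 0.00462% to 0.00851%, with Calca, the precursor of the peptide CGRP, at 8.67 to 18.3 CPM. Of 9 tuft genes only 3 were in the table, and of 6 ionocyte genes 4. The ionocyte list held 0.0273% to 0.0304% of UMIs, of which the proton pump subunit Atp6v1c2, at 265 ± 35.5 CPM (SD, n = 5), made up 90.2%. The chloride channel Cftr stood at 19.5 to 29.3 CPM, Atp6v0d2 averaged 2.80 CPM and Ascl3 0.794 CPM. The listed Foxi1 and Moxd1 were not in the table.

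Keratins and stress-induced genes of the transitional alveolar state, which type II cells enter on their way to type I cells after injury, were also present. Krt8 measured 345, 243, 240, 209 and 199 CPM in s1, s2, s6, s11 and s16, and its partner Krt18 averaged 423 ± 31.5 CPM (SD, n = 5). Cdkn1a, which encodes the cell cycle inhibitor p21, averaged 225 ± 36.8 CPM (SD, n = 5), and Cldn4 8.15 ± 2.40 CPM. The 9 genes together held 0.153% to 0.191% of UMIs. Proliferation genes were low, with 15 of 18 in the table and a joint share of 0.0130% to 0.0191%, of which the replication clamp Pcna made up 32.9%. Mki67 and Top2a stood at 1.97 to 5.27 CPM and 2.83 to 9.32 CPM.

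Lung lineage transcription factors were readily measured. Irx1, an Iroquois homeobox gene, was the most abundant of 27 in the table, with 1151 ± 266 CPM, and Id2, an inhibitor of basic helix-loop-helix factors, averaged 543 ± 171 CPM (SD, n = 5). Nkx2-1, the homeodomain regulator of lung identity, measured 475, 478, 460, 270 and 352 CPM, and Cebpa, a regulator of type II maturation, 417, 375, 381, 304 and 267 CPM in s1, s2, s6, s11 and s16. Foxa2 averaged 115 ± 23.4 CPM and Gata6 57.4 ± 5.3 CPM (SD, n = 5). The related pioneer factor Foxa1 behaved differently, at 99.6, 94.8, 64.0, 24.5 and 8.65 CPM in the same order. Sox2, which marks airway as opposed to alveolar identity, measured 44.3, 31.9, 12.6, 12.3 and 18.1 CPM.

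Antigen presentation genes were abundant in the PBS epithelium. The 8 class II genes held 0.966% to 1.20% of UMIs. H2-Aa averaged 3738 ± 291 CPM, its invariant chain Cd74 3217 ± 784 CPM and H2-Ab1 1947 ± 281 CPM (SD, n = 5), while Ciita, the class II transactivator, stood at 5.66 to 11.8 CPM. In class I, H2-K1 averaged 2465 ± 647 CPM, H2-D1 2167 ± 643 CPM and B2m, the light chain, 1541 ± 560 CPM (SD, n = 5). The H2 genes are alike in sequence, so that the counts of single members are uncertain. B2m and the heavy chains differed in order, since B2m was highest in s16 at 2285 CPM, where H2-K1 and H2-D1 were lowest at 1811 and 1514 CPM.

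The mucosal defence list joined even and uneven members. Its 14 measured genes held 0.995% to 1.16% of UMIs in 4 libraries and 1.69% in s16, with a mean of 1.06% ± 0.072% (SD, n = 4) without s16. The list shares Bpifa1 with the club list and Bpifb1 with the goblet list, and Bpifa1 alone held 0.507% of UMIs in s16. The median CV of the 13 members with a mean of at least 30 UMIs was 0.57, beside 0.180 for all such genes. The most abundant member was Wfdc2, a protease inhibitor of airway fluid, which made up 53.7% of the list at 6194 ± 1059 CPM (SD, n = 5). Lcn2, which withholds bacterial siderophores, measured 1469, 1343, 3526, 2094 and 2386 CPM in s1, s2, s6, s11 and s16. Lactoferrin (Ltf) measured 130.3, 108, 33.6, 40.6 and 634 CPM, and the C-type lectin Reg3g 468, 198, 53.9, 224 and 1242 CPM. Both were highest in s16 and lowest in s6. The complement component C3, at 290.2 ± 50.3 CPM, and Lbp, which presents bacterial lipopolysaccharide to its receptor, at 282 ± 39.9 CPM (SD, n = 5), had CVs of 0.17 and 0.14.

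Lipid synthesis genes held a similar share in every library, while single members differed. The 22 measured genes held 0.853% to 1.18% of UMIs, led by the fatty acid elongase Elovl1 (3313 ± 998 CPM) and the desaturase Scd1 (3204 ± 922 CPM, SD, n = 5). Scd1 measured 2019, 2590, 3433, 3579 and 4398 CPM in s1, s2, s6, s11 and s16, and the lipid chaperone Fabp5 292, 311, 525, 628 and 885 CPM. Srebf1, the sterol-responsive transcription factor that governs fatty acid synthesis, was nearly flat at 318 to 359 CPM. Of 20 lipid genes with a mean of at least 30 UMIs, 10 were highest in s16, beside the 24.9% of all genes, and their median CV was 0.20, beside 0.180 for all such genes.

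Some heat shock and immediate early transcripts, which many kinds of stress induce, differed between libraries. The median CV of members with a mean of at least 30 UMIs was 0.24 for the heat shock list and 0.20 for the immediate early list, beside 0.180 for all such genes. The inducible Hsp70 genes Hspa1a and Hspa1b, near-identical copies whose reads cannot be divided with certainty, measured 55.3 and 54.7 CPM in s1, 81.2 and 95.1 CPM in s2, 19.05 and 13.8 CPM in s6, 26.9 and 27.8 CPM in s11, and 16.5 and 11.8 CPM in s16. Of 10 heat shock genes 7 were highest in s2, where 14.5% of all genes were. Junb, a subunit of AP-1, measured 134, 119, 107, 45.3 and 42.9 CPM and Fos 142, 148, 121, 68.0 and 88.5 CPM in s1, s2, s6, s11 and s16. The most abundant immediate early members, Zfp36 and Nfkbia, were even, with CVs of 0.098 and 0.104. The interferon response list held 0.106% to 0.149% of UMIs, and its leading gene Ifi27, at 417 ± 60.2 CPM (SD, n = 5), made up 32.8% of it. Ifit1 and Ifit3, sensors induced by interferon, stayed at 1.97 to 12.1 CPM and 4.86 to 19.3 CPM.

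Variation between the 5 libraries was modest for most genes and large for airway secretory products. Among the 4190 genes with a mean of at least 100 UMIs per library, the median CV was 0.158, against a median of 0.070 that counting alone would give. The CV exceeded 0.5 in 73 genes (1.74%) and was under 0.1 in 815 (19.5%). Of the 73 genes, 42 were highest in s16, 23 were lowest in s16 and 22 were lowest in s6. Without s16, 41 genes were over 0.5, and without s11, 111.

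**Figure D5:**
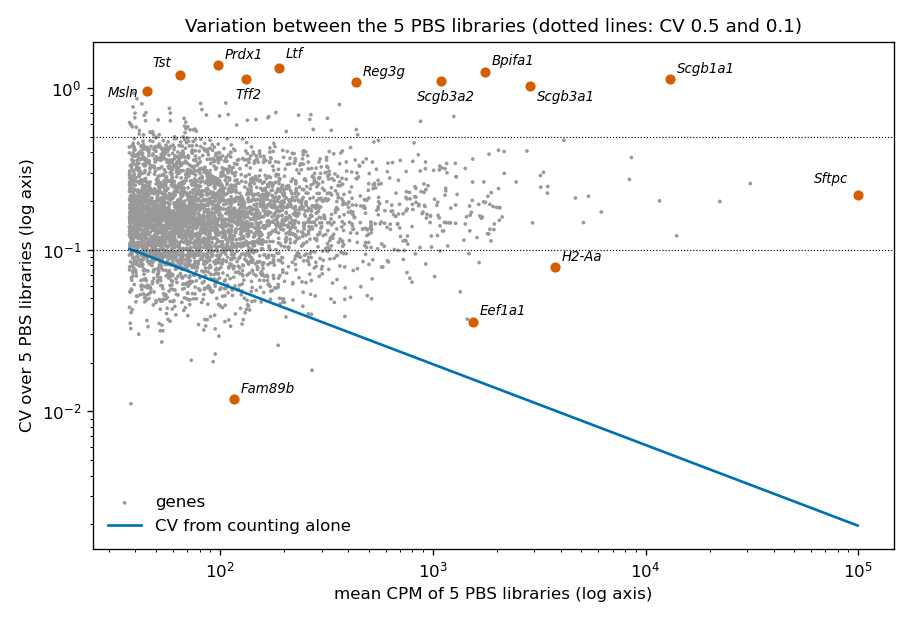
The CV over the 5 PBS libraries is plotted against mean CPM for genes with a mean of about 100 UMIs or more, both on log axes, with the CV from counting alone as a blue line and named genes in orange. The cloud centres near 0.16, secretoglobins and defence genes sit near 1 at the top, and Eef1a1 and H2-Aa lie low among the abundant genes.

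The highest CV belonged to Prdx1, a peroxiredoxin, at 1.38, with 20.3 CPM in s1, 14.3 CPM in s2, 33.6 CPM in s6, 86.4 CPM in s11 and 333 CPM in s16. It was followed by Ltf (1.33), Bpifa1 (1.26), the sulfurtransferase Tst (1.20), Tff2 (1.14), Scgb1a1 (1.13), Scgb3a2 (1.11), Reg3g (1.08) and Scgb3a1 (1.03). All 9 were highest in s16. Without s16 their CVs were 0.38 to 0.85, with 0.85 for Prdx1, 0.62 for Ltf, 0.69 for Bpifa1 and 0.38 for Scgb1a1. RefSeq annotates a pseudogene of Prdx1, so the assignment of its reads is uncertain. Tst, a mitochondrial enzyme, measured 23.0, 20.8, 20.3, 59.0 and 202 CPM in the same order. Some of the 15 genes with the highest CV were high in more than 1 library. Msln, mesothelin, stood at 101 CPM in s1 and 85.0 CPM in s16 against 11.8 to 16.1 CPM in the other 3. The complement factor Cfb stood at 56.3 CPM in s1 and 96.8 CPM in s16 against 16.5 to 28.0 CPM, and Hspa1b was highest in s2 and s1. Cfb, Hspa1b, Lypd2, Muc5b and Bpifb1 had CVs of 0.79 to 0.86. Of these 15 genes 12 were also among the 15 highest when the library total was used without TMM, and 5 when s16 was left out.

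The lowest CVs were below what counting allows to be ordered. Ddx42, an RNA helicase, had a CV of 0.011 at 38.1 CPM, where counting alone gives 0.1003, and Fam89b 0.012 at 117 CPM, where counting gives 0.057. All 15 of the lowest lay under their counting CV, among them Ddb1, a ubiquitin ligase adaptor, Gars, the glycyl-tRNA synthetase, and the vesicle trafficking genes Vps33b and Pdcd6ip. With the library total in place of TMM, 0 of the 15 stayed among the lowest. Among the 312 genes with a mean of at least 1000 UMIs, a set examined after the values were seen, the steadiest were Eef1a1, the translation elongation factor, with 1474 to 1627 CPM and a CV of 0.036, and Ces1d, a carboxylesterase, with 1403 to 1511 CPM and a CV of 0.037. The splicing factor Srsf5 (0.039), the water channel Aqp5 (0.049) and the antioxidant Prdx6 (0.052) came next or close behind.

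Each library was also set against the median of the other 4. Library s1 had 17 genes over 2-fold higher and 27 lower, s2 had 13 and 24, s6 had 14 and 193, s11 had 4 and 27, and s16 had 64 and 88. In s1 and s2 the surface glycoprotein Cd24a stood out, 3.38-fold and 2.53-fold above the median of the other libraries. In s6 the acute phase glycoprotein Lrg1 reached 2696 CPM against a median of 842 CPM, Retnla, a marker of type 2 responses, 163 CPM against 46.4 CPM, and the fasting-induced Angptl4 84.3 CPM against 32.1 CPM. The genes most reduced in s6 were Reg3g (6.42-fold), the ciliary kinase Stk33 (4.68-fold) and Pifo (4.34-fold), a gene of primary cilium disassembly. Ciliated list members made up 34 of the 193 genes lower in s6, and 34 (0.811%) of all 4190 genes compared.

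In s16, genes outside the airway lists departed as far as those on them. Of the 64 higher genes 16 were on the club, goblet or mucosal defence lists, which held 31 (0.740%) of all 4190 genes compared. Of all genes 1.53% were higher and 2.1% lower in s16 by this measure. Syap1 stood at 4.33 CPM in s16 against a median of 51.2 CPM in the others, the tropomyosin Tpm4 at 24.0 CPM against 273 CPM, Sh3bgrl at 5.90 CPM against 65.9 CPM and the small GTPase Rap1b at 15.3 CPM against 135 CPM. Library s11 leaned the same way as s16. It was the highest of the other 4 for 44 of the 64 higher genes (68.8%, beside 31.6% of all 4190 genes) and the lowest of them for 58 of the 88 lower genes (65.9%, beside 25.1%). Tpm4 measured 60.4 CPM in s11, also below s1, s2 and s6.

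Transcript length moved with these departures. The longest annotated transcript had a median of 1104 nt for the 64 genes higher in s16 and 2931 nt for the 88 lower genes, beside 2438 nt for all 4190 genes, of which 98.2% could be matched to a transcript. The 27 genes lower in s1 and the 24 lower in s2 were likewise short, with medians of 931 nt and 1028 nt, and the 27 lower in s11 were long, with 2882 nt. The median GC content was 47.6% and 47.0% for the genes higher and lower in s16, and 52.9% overall. The part that transcript length plays in the departures of s16 was not tested. For the endothelial list, 11 of 14 genes were lowest in s16, beside the 23.0% of all genes.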

How the data were processed

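The deposited table holds raw UMI counts per gene for 8 libraries, of which the authors' UMI counts of the 5 PBS libraries were used. By the study's methods, reads were processed with a transcriptome analysis pipeline (UTAP), and only those mapping uniquely to the 3′ part of RefSeq genes were kept. The submitters' processing notes name DESeq2 and mm10, while the sources used here do not state the aligner. The 16 columns of normalized and transformed values were not used, and neither were the columns of the authors' own comparison, which hold fold changes and p-values.

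Columns were assigned to the PBS group by their names. Levels are CPM over the effective library size, with TMM factors from edgeR 4.0.16 in R 4.3.3 computed on the 5 PBS libraries. List shares are raw UMIs over the library total, with Wilson 95% intervals that cover counting error only. The CV (SD over mean) was computed for genes with a mean of at least 100 UMIs per library, beside the CV that Poisson counting gives, and this step was tested on simulated data. Whether a gene was highest or lowest in a library was counted for genes with a mean of at least 30 UMIs. Genes were named by rule, namely the 20 most abundant, up to 5 leading members of each of 28 lists, the 15 highest and 15 lowest CVs and the 5 highest and lowest genes of each library, with predicted genes left out of the last 3. Further list members were added after their values were seen. The libraries and lists were chosen with earlier results of these data known. No groups were compared, since the 5 libraries form a single group, and single high or low libraries were looked for with Dixon's test. Of the table's genes 99.6% matched a RefSeq entry of GRCm38.p6 by symbol, and transcript lengths were those of GENCODE M21. The alternatives were other scalings (library total, DESeq2 1.42.0 size factors, TMM over 8 libraries), other count minimums, other measures of variation, removal of leading genes, and removal of each library in turn, which was extended to the goblet and mucosal defence shares and to the CVs of 10 genes after the values were seen. Protein sequences were not used here.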

Additional observations from a re-analysis of the deposited data

Results flagged for a closer look

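A library was singled out for a list share or a named gene when the gap between it and the nearest of the other 4, divided by the range of the 5, exceeded Dixon's critical value of 0.71 for 5 samples. Chance alone would single out about 5% of values, 173 values were examined, and many of the genes had been named for their spread, so the 22 values that follow are a description.

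Library s16 was high in 14 of them. Its shares were 7.16% for the club list (2.49% to 3.28% in the other 4), 0.147% for the goblet list (0.0255% to 0.0531%) and 1.69% for the mucosal defence list (0.995% to 1.16%). These shares overlap, since the mucosal defence list holds Bpifa1 of the club list and Bpifb1 of the goblet list. Bpifa1 alone held 0.507% of UMIs in s16. Among the secretoglobins s16 held 39070 CPM of Scgb1a1, 8020 CPM of Scgb3a1 and 3217 CPM of Scgb3a2. Among mucosal products it held 5645 CPM of Bpifa1, 864 CPM of Bpifb1, 634 CPM of Ltf, 395 CPM of Tff2, 193 CPM of Muc5b and 255 CPM of Lypd2. Prdx1 at 333 CPM and Tst at 202 CPM, which belong to none of these lists, were high in the same library.

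Library s6 was low in 4 of them, with 636 CPM of Sec14l3, 659 CPM of Tppp3, 15.0 CPM of Stk33 and 0.00328% for the erythroid and platelet list, which had 3 genes in the table. The same library was high in Chil1 (14068 CPM against 6495 to 8680 CPM in the other 4), Lrg1 (2696 CPM against 670 to 1223 CPM) and Angptl4 (84.3 CPM against 15.7 to 34.4 CPM). In s1 the neuroendocrine share was high, at 0.00851% against 0.00462% to 0.00565% in the other 4.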

How the results depend on the processing

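Of 125 alternatives over 14 results, 108 stayed within the spread between libraries, or within 1.5 times for a count, and 17 did not. The median CV has no value per library. Its limit, 0.011, matches the spread of the medians with each library left out, so it is no independent check on those. For club products that spread itself rests on s16, and within it the mean of Scgb1a1 was 6687 CPM without s16, against 13021 CPM with it, and the club share was 2.36% without its leading gene, against 3.75%. The type II share was 12.0% of UMIs with the most abundant gene out of the total, 10.8% with the leading list member out, and 17.3% with Lyz1 and Lyz2 out, and the type I share was 0.353% without Ager. The median CV was 0.180 with a minimum of 30 UMIs, 0.244 with none, 0.141 with the counting variance taken off and 0.183 by the edgeR biological CV. Genes with a CV over 0.5 numbered 246 with a minimum of 30 UMIs, 25 with 300, 2126 with none and 21 by the edgeR measure, and 41 to 111 with a library left out. Genes with a CV under 0.1 numbered 259 with a minimum of 300 UMIs, 1284 with the counting variance taken off and 0 by the edgeR measure, which shares information between genes. Other scalings moved none of these past the limit. With 5 libraries from a single group, a high or low library could not be set against a known batch, levels under 0.929 to 1.42 CPM, by library, rest on fewer than 3 UMIs, and the lowest CVs lie under counting noise.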

Other observations

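The study concerns senescent cells and the checkpoint ligand PD-L1, and the baseline levels of related genes in the PBS epithelium were read after the lists had been fixed. Cd274, which encodes PD-L1, was near the floor, at 3.00 CPM in s1, 5.58 CPM in s2, 1.22 CPM in s6, 0.944 CPM in s11 and 3.15 CPM in s16. These are RNA levels, whereas the paper measured PD-L1 protein in lung epithelium by mass cytometry and ties its rise in senescent cells to protein stability. A low RNA level thus does not give the level of the protein, which was not measured here. Other ligands that act on lymphocytes and phagocytes were well above Cd274 in RNA level. Nectin2 and Pvr, which bind receptors of T and NK cells, averaged 268 ± 47.5 CPM and 77.4 ± 10.5 CPM, and Cd47, the signal that restrains phagocytosis, 149.8 ± 11.3 CPM (SD, n = 5). Lgals9, galectin 9, averaged 178 ± 32.3 CPM (SD, n = 5). Cdkn2b, which encodes the cell cycle inhibitor p15, averaged 25.7 ± 6.6 CPM, and Lmnb1, the lamin that is lost in senescent cells, 10.9 ± 1.5 CPM (SD, n = 5).

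The cytokine genes named next were also chosen after their values were seen. The chemokine Ccl20 measured 44.7, 6.20, 23.5, 14.6 and 63.3 CPM in s1, s2, s6, s11 and s16, and the neutrophil attractant Cxcl5 12.3, 3.10, 12.97, 7.08 and 37.8 CPM. Csf2, which encodes the growth factor GM-CSF that alveolar macrophages need, averaged 31.8 ± 10.3 CPM (SD, n = 5) and was lowest in s1, at 19.7 CPM. Csf1, the macrophage growth factor, was even, at 20.3 to 26.3 CPM. Antioxidant enzymes differed in level and evenness, with superoxide dismutase Sod1 at 1492 ± 195 CPM and catalase (Cat) at 329 ± 28.8 CPM, and the secreted enzymes Sod3 at 66.8 ± 27.2 CPM and Gpx3 at 148 ± 56.3 CPM (SD, n = 5). Both of these were lowest in s16, at 27.9 and 79.5 CPM. Fgfr2, the receptor through which fibroblast growth factors act on type II cells, averaged 264 ± 41.4 CPM, against 62.3 ± 18.9 CPM for Fgfr3 (SD, n = 5).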
